A study of Oryctolagus cuniculus with 8 samples.

Results

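Embryonic stem (ES) cells of the rabbit were compared with cultured body cells on 4 of the 8 arrays of the series, chosen by their labels. On the ES side were the lines rdES4 and rdES2-1, and on the somatic side were the liver cells and the stomach cells, so that n = 2 arrays per side. A fit that leaves out an ES or a somatic array keeps a single array on that side, so its p-value holds no spread within that side. The other 4 arrays held induced pluripotent stem (iPS) cells, a liver line at passages 7 and 23 and a stomach line at passages 6 and 22, which entered the filter on dim probes, the estimate of the spread and a short comparison at the end. Every sample was of the strain Dutch rabbit. The ES lines grew in stem cell medium and the liver and stomach cells in somatic cell medium, so cell type and medium cannot be told apart. Sex, age and, for the somatic cells, passage and method of isolation were not given in the sources used here. The labels name 2 different ES lines and cells of 2 organs but no animals and no second culture of any of them, so the p-values speak only for the spread among these arrays. In RNA from whole cultures, fewer cells of a type and less RNA per cell cannot be told apart.

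ES cells come from the early embryo, divide without differentiating and can form the tissues of the body. A small set of transcription factors with POU5F1 (Oct4) at its centre maintains this state. In the body, hepatocytes of the liver make most plasma proteins, and the stomach lining secretes acid and digestive proteases.

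Levels below are log2 signals minus the 75th percentile of the array, so 0 is that percentile and each unit is a doubling. Differences are ES minus somatic on this log2 scale, with the standard error (SE) and limma's adjusted p, and a gene passed at an adjusted p under 0.05. A gene is called dim on an array where its probe was not well above background. Differences of dim genes or probes, where no bound is given, are those of the measured signals and have no exact size. The 75th percentile of the signal was 274.0 and 310.3 on the ES arrays and 163.5 and 154.7 on the liver and stomach arrays, and 57.8% to 64.7% of probes were well above background. Of 28848 tested probes, 63.9% passed, 34.2% higher and 29.7% lower in ES cells. The groups did not overlap for 82.7% of the probes, 43.4% with ES higher and 39.3% with ES lower. Symbols were matched for 680 genes, of which 511 were tested. Among these 63.8% passed, 21.1% higher and 42.7% lower, the groups did not overlap for 79.3% (28.4% higher, 50.9% lower), and the median log2 difference was -0.44 against 0.07 over all tested probes. Counts of gene lists below are to be read beside these 21.1% and 42.7%. A gene dim on both arrays of a side was tested only if another group measured it, which partly sets the counts and medians of its lists. Without scaling between arrays 81.5% of the calls over all probes were higher in ES cells, and with the normexp background correction 34.3%, against 53.6% in the reported setting. Those settings moved the median of all probes to 0.94 and -0.32, and quantile normalization moved it to 0.14. The arrays lay on 3 slides: rdES4 shared a slide with the liver cells and rdES2-1 shared another with the stomach cells. The difference had the same sign on both slides for 25277 of the 28848 tested probes, among them all 18442 that passed, for which the call nearly fixes this.

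The somatic labels were set against markers of their organs. Albumin (ALB), the main plasma protein of hepatocytes, apolipoprotein APOA1 and the gastric proton pump subunit ATP4B were not well above background on any of the 4 arrays. The signals of the 15 named hepatocyte genes, each divided by the array's 75th percentile, summed to 5.82 in liver cells, 21.1 in stomach cells, 6.42 in rdES4 and 4.67 in rdES2-1. Of this sum RBP4 made up 63.6% on the liver array and 63.8% on the stomach array, HP a further 21.3% on the latter, and TF made up 66.4% and 63.5% in the ES lines. The same sum over 5 named gastric genes was 5.73 in liver cells, 1.47 in stomach cells, 0.285 in rdES4 and 0.247 in rdES2-1, and CTSE alone made 95.8% of it in liver cells and 84.8% in stomach cells. In the somatic cells both sums thus rested mostly on 1 or 2 genes. The sum over 13 matrix and mesenchyme genes was 378.4 in liver cells and 397.4 in stomach cells, against 10.3 and 9.16 in the ES lines. TIMP1 made up 34.85% of it in liver cells, 70.2% in stomach cells, 62.92% in rdES4 and 67.65% in rdES2-1. MGP made up a further 37.68% in liver cells, so this sum too rested mostly on 1 or 2 genes. The part of culture composition in the differences below was not tested.

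**Figure D1:**
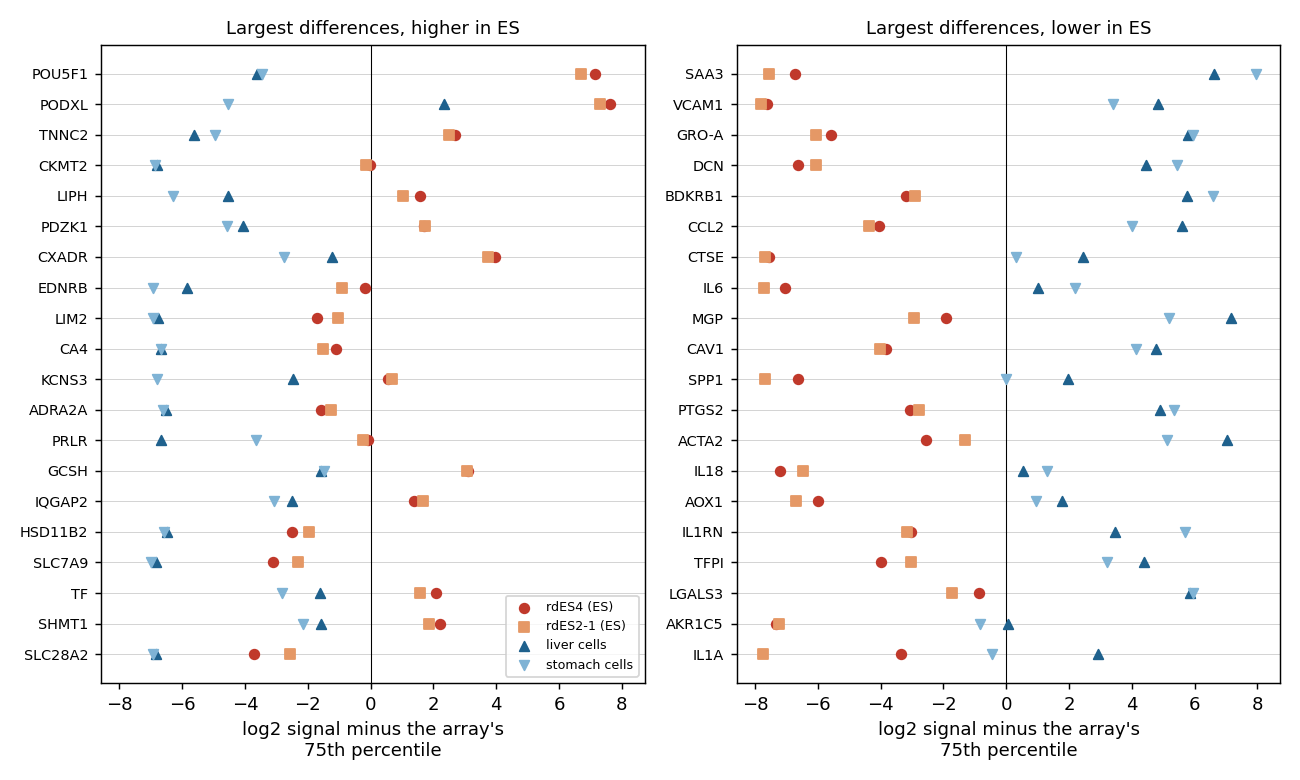
Levels of the 20 named genes with the largest rise (left) and the 20 with the largest fall (right) in ES cells. The horizontal axis is the log2 signal minus the 75th percentile of the array, and each symbol is 1 array. The symbols of the ES lines and those of the somatic cells do not overlap for any of these genes, which were chosen partly for that. PODXL, KCNS3, PRLR and IL1A show the widest gaps within a side.

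The pluripotency genes that could be named were few. POU5F1 stood at 7.14 in rdES4 and 6.69 in rdES2-1, against -3.62 in liver cells and -3.46 in stomach cells, a difference of 10.46 ± 0.19 (SE, adjusted p = 5.92e-05). Both ES lines were thus far above both somatic arrays, which were close to each other. PODXL, a sialomucin of the cell surface of pluripotent and epithelial cells, was at 7.63 and 7.31 in the ES lines, 2.34 in liver cells and -4.54 in stomach cells (dim there; 8.57 ± 2.17 SE, adjusted p = 0.0199). The groups did not overlap, but liver cells held far more PODXL signal than stomach cells. The difference was 5.13 without the stomach array and 12.01 without the liver array, and the call was lost without rdES4 (adjusted p = 0.085) or without rdES2-1 (adjusted p = 0.0788). KLF5, a transcription factor of epithelia and of early embryos, did not pass, with levels of -4.39 and -4.72 in the ES lines and -3.55 and -3.93 in liver and stomach cells (adjusted p = 0.0641). None of its 4 probes passed, and on 2 of them neither somatic array was well above background. The sign of KLF5 turned to 0.06 without scaling, and it passed as lower with normexp (adjusted p = 0.00169) and without the early passage array of the liver iPS line (adjusted p = 0.0178). It also passed as lower with only the 4 arrays (adjusted p = 0.043) and with slide as a block (adjusted p = 0.038). The same held with probes well above background on all 4 arrays (adjusted p = 0.0459) and without the late passage array of the stomach iPS line (adjusted p = 0.0401). In the remaining settings it did not pass.

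Epithelial surface genes were split between the sides. Of 9 tested genes of epithelial junctions and apical membranes, 4 were higher in ES cells (44.4%), 2 were lower (22.2%) and 3 did not pass, with a median of 0.84. The shares over all named genes tested were 21.1% and 42.7%. CXADR, an adhesion protein of cell junctions, was at 3.95 and 3.74 in the ES lines and at -1.23 and -2.76 in liver and stomach cells. All 4 of its probes passed, 3 of them with differences from 5.19 to 5.84, while on the fourth both somatic arrays were dim and the fold was at least 9.35. PDZK1, a scaffold that holds transporters at the apical membrane, was at 1.71 and 1.75 in the ES lines, -4.06 in liver cells and -4.57 in stomach cells (dim there; 6.04 ± 0.20 SE, adjusted p = 8.04e-05). The lipase gene LIPH, whose product makes the signalling lipid lysophosphatidic acid, was at least 59.3-fold higher in ES cells, since neither somatic array measured it (adjusted p = 0.000625).

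MME encodes neprilysin, a membrane peptidase that inactivates signalling peptides. It was at -0.54 and -0.14 in the ES lines, -2.29 in liver cells and -4.90 in stomach cells (dim there; 3.26 ± 0.84 SE, adjusted p = 0.0207). The ES lines lay above both somatic arrays, yet the call was lost without rdES4 (adjusted p = 0.0713), without rdES2-1 (adjusted p = 0.095) and with slide as a block (adjusted p = 0.0517), and the difference was 1.96 without the stomach array. In the other direction went LGALS3, which encodes the carbohydrate-binding protein galectin-3. It stood at -0.86 and -1.73 in the ES lines and at 5.87 and 5.95 in liver and stomach cells (-7.21 ± 0.31 SE, adjusted p = 0.000121).

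Several receptor genes were measured on the ES arrays and on neither somatic array. EDNRB, an endothelin receptor, was at -0.19 in rdES4 and -0.90 in rdES2-1 and was at least 16.5-fold higher than in somatic cells (adjusted p = 0.000397). The adrenergic receptor gene ADRA2A, at -1.57 and -1.27 in the ES lines, was at least 8.98-fold higher (adjusted p = 7.51e-05). Other genes of this pathway were lower in ES cells: EDNRA, the second endothelin receptor, had a difference of -1.07 and the ligand gene EDN1 of -0.87, but without scaling these were -0.20 and 0.003 and neither passed (adjusted p = 0.386 and 0.989). The kinin receptor gene BDKRB1 was at -3.19 and -2.92 in the ES lines and at 5.76 and 6.57 in liver and stomach cells, a difference of -9.22 ± 0.30 (SE, adjusted p = 7.73e-05). Among 7 tested genes of kinins, endothelins and angiotensin, 2 were higher, 4 lower and 1 did not pass.

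PRLR, the prolactin receptor gene, was at -0.07 and -0.24 in the ES lines, -3.66 in stomach cells and -6.66 in liver cells (dim there; 5.01 ± 0.96 SE, adjusted p = 0.00784). The stomach cells were thus nearer to the ES lines than the liver cells were, and the difference was 3.51 without the liver array and 6.50 without the stomach array. FGFR2, a receptor for fibroblast growth factors, was at least 2.45-fold higher in ES cells (adjusted p = 0.0102), but its call was lost without rdES2-1 (adjusted p = 0.0588), and with normexp its difference was -0.06 (adjusted p = 0.753).

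Of 11 tested potassium channel genes, 4 were higher in ES cells and none was lower, while 10 named ones were not tested. KCNS3, a modifying subunit of voltage-gated channels, was at 0.55 and 0.69 in the ES lines, -2.46 in liver cells and -6.79 in stomach cells (dim there; 5.25 ± 1.37 SE, adjusted p = 0.0219). Its levels in the ES lines were close together, and the somatic arrays were far apart. The call was lost without rdES4 (adjusted p = 0.0847) or rdES2-1 (adjusted p = 0.0907), and the difference without the stomach array was 3.08. KCND2 was at least 3.36-fold higher (adjusted p = 0.00236) and KCNK1 at least 1.25-fold higher (adjusted p = 0.00436), neither being measured on a somatic array. With normexp only 1 of the 11 was higher and 3 were lower: KCND2 no longer passed (0.12, adjusted p = 0.663) and KCNK1 turned to -0.41 (adjusted p = 0.00989). KCNK1 also lost its call with all 8 arrays in 4 groups (adjusted p = 0.157) and without the late passage array of the liver iPS line (adjusted p = 0.0675).

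The calcium channel and release genes had no common direction, with 5 higher (27.8%), 5 lower (27.8%) and 8 not passing. Among all named genes tested 21.1% were higher and 42.7% lower. With normexp 4 of the calcium genes were higher and 10 lower, and without scaling 8 were higher and 3 lower. CACNA1A, the pore subunit of a neuronal calcium channel, was at -0.20 and -0.44 in the ES lines, -4.15 in liver cells and -2.34 in stomach cells (2.92 ± 0.60 SE, adjusted p = 0.00966; 0.0532 without rdES4).

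Muscle genes were found on both sides. TNNC2, the troponin C of fast skeletal muscle, was at 2.70 and 2.51 in the ES lines and was not well above background in liver or stomach cells, so that it was at least 146.4-fold higher in ES cells (adjusted p = 8.16e-05). CKMT2, a mitochondrial creatine kinase of striated muscle, was at -0.02 and -0.15 in the ES lines and at least 22.7-fold higher (adjusted p = 5.92e-05). RYR1, the calcium release channel of skeletal muscle, was at -2.06 and -2.50 in the ES lines, -4.85 in liver cells (dim) and -4.13 in stomach cells (2.21 ± 0.29 SE, adjusted p = 0.00219). With normexp RYR1 did not pass (0.22, adjusted p = 0.146).

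SYPL2, a membrane protein of the muscle triad, was at least 1.17-fold higher in ES cells (adjusted p = 0.000933), but with normexp its difference was -0.40 (adjusted p = 0.00908). By contrast TNNI2, the troponin I of fast muscle, stood at -5.06 and -5.61 in the ES lines, only 1 of which measured it, and at -3.11 and -1.58 in liver and stomach cells (-2.99 ± 0.53 SE, adjusted p = 0.00598). GYS1, the glycogen synthase of muscle, was at 1.76 and 1.86 in the ES lines and 5.56 and 5.64 in the somatic cells (-3.79 ± 0.13 SE, adjusted p = 8.08e-05). In all, 7 of 19 tested striated muscle genes were higher (36.8%), 4 lower (21.1%) and 8 did not pass, with a median of 0.26, or 0.23 with dim genes at their bounds. The shares over all named genes tested were 21.1% higher and 42.7% lower. With normexp 4 of the 19 were higher and 11 lower, with a median of -0.40. Without scaling 12 were higher and 2 lower, with a median of 1.13.

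Transporter genes were divided evenly: of 39 tested solute carriers, 12 were higher (30.8%), 12 lower (30.8%) and 15 did not pass. Among all named genes tested 21.1% were higher and 42.7% lower. With normexp 3 were higher and 23 lower, and without scaling 18 were higher and 6 lower. SLC7A9, the light subunit of a cystine transporter, was at -3.10 and -2.31 in the ES lines and at least 3.70-fold higher (adjusted p = 0.000742), and the nucleoside transporter gene SLC28A2, at -3.73 and -2.57, was at least 2.71-fold higher (adjusted p = 0.00105). Neither was measured on a somatic array, and neither passed with normexp (adjusted p = 0.116 and 0.458).

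SLC1A1, a glutamate transporter gene, was uncertain. It stood at -0.90 in rdES4 and -3.18 in rdES2-1, with neither somatic array well above background (at least 5.57-fold, adjusted p = 0.0276), and its second probe showed no difference past the threshold (0.04, adjusted p = 0.945). The call was lost without rdES4 (2.35, adjusted p = 0.104), without the liver array (2.47, adjusted p = 0.0898), with slide as a block (adjusted p = 0.0923), with only the 4 arrays (adjusted p = 0.0557) and with normexp (0.43, adjusted p = 0.322).

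The amino acid transporter made of SLC7A5 and SLC3A2, which carries large neutral amino acids, had both subunits lower in ES cells. SLC7A5 was at 3.97 and 3.87 in the ES lines against 7.55 and 7.93 in liver and stomach cells, a difference of -3.82 ± 0.17 (SE, adjusted p = 0.000137). SLC3A2 was at 0.94 and 0.68 against 3.69 and 3.90 (-2.99 ± 0.16 SE, adjusted p = 0.00019). For both, the somatic arrays lay together and well above the ES lines.

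Further genes high in ES cells included HSD11B2, which inactivates glucocorticoids (at least 5.11-fold, adjusted p = 0.000405; not passing with normexp at 0.25, adjusted p = 0.222), and CA4, a carbonic anhydrase of the cell membrane (at least 9.72-fold, adjusted p = 0.00065). LIM2, a membrane protein known from the lens, was at least 9.32-fold higher (adjusted p = 0.000231), and all 5 of its probes passed. IQGAP2, a scaffold of the cytoskeleton, was at 1.39 and 1.66 in the ES lines and -2.50 and -3.08 in liver and stomach cells (4.31 ± 0.25 SE, adjusted p = 0.000233). The kinase gene PRKCZ, whose product takes part in cell polarity, was at 2.40 and 2.71 against -0.49 and -0.31 (2.96 ± 0.19 SE, adjusted p = 0.000291).

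GCSH and SHMT1, both among the 20 largest rises, take part in serine and glycine metabolism, which supplies one-carbon units for nucleotide synthesis. GCSH, a carrier protein of the mitochondrial glycine cleavage system, was at 3.11 and 3.06 in the ES lines and -1.57 and -1.50 in liver and stomach cells (4.62 ± 0.12 SE, adjusted p = 6.22e-05), and all 11 of its probes passed, between 4.31 and 5.28. SHMT1, the cytosolic enzyme that converts serine to glycine, was at 2.22 and 1.85 against -1.58 and -2.15 (3.90 ± 0.25 SE, adjusted p = 0.000295). In both genes the ES lines were high and the somatic arrays low, with no overlap.

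The next 3 genes also act on serine but formed no list, and they were chosen after their values were seen, so they do not stand for the pathway. SHMT2, the mitochondrial counterpart of SHMT1, went the other way, with 2.10 and 2.24 in the ES lines and 6.11 and 5.97 in liver and stomach cells (-3.88 ± 0.14 SE, adjusted p = 8.17e-05). PSAT1, an enzyme of serine synthesis, was likewise lower in ES cells, at 4.60 and 4.98 against 8.37 and 8.58 (-3.69 ± 0.23 SE, adjusted p = 0.00028), and all 6 of its probes passed. CBS, which joins serine to homocysteine, was higher in ES cells, at -0.36 and -0.16 against -3.71 and -2.88 (3.04 ± 0.32 SE, adjusted p = 0.00105). Both members of the SHMT pair therefore passed, in opposite directions, and each was of similar size on both slides.

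All 4 subunits of the cytosolic chaperonin CCT that could be named were higher in ES cells, under each scaling tried. This ring-shaped complex folds actin and tubulin. The differences were 1.31 for CCT2, 1.02 for CCT7, 0.97 for CCT6A and 0.83 for TCP1, with adjusted p from 0.00108 to 0.00577. Levels of CCT2 were 5.62 and 5.80 in the ES lines and 4.47 and 4.33 in liver and stomach cells, so the difference was small beside those above but larger than the spread within either side. FKBP4, a partner of the chaperone HSP90, was at 4.40 and 4.49 against 1.83 and 1.95 (2.55 ± 0.13 SE, adjusted p = 0.000175).

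USP14, a ubiquitin protease of the proteasome, was at 2.37 and 2.57 in the ES lines and 0.92 and 1.04 in liver and stomach cells (1.49 ± 0.14 SE, adjusted p = 0.000755). NASP, a chaperone of histones, was chosen after its values were seen and was at 6.56 and 6.39 against 3.19 and 3.02 (3.37 ± 0.14 SE, adjusted p = 0.000116). In both genes the ES lines lay above both somatic arrays.

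Translation factors depended on the scaling. EEF1G, a subunit of elongation factor 1, was at 7.80 and 7.82 in the ES lines and 8.81 and 9.16 in liver and stomach cells (-1.18 ± 0.16 SE, adjusted p = 0.00249), and EEF1A1, EEF1B2 and EEF1D had differences of -0.82, -0.86 and -0.66. These 4 of 5 elongation genes were called lower, but 0 of 5 were with quantile normalization or without scaling, where EEF1D turned to 0.09 and 0.22, and EEF1A1 and EEF1B2 to 0.06 and 0.02 without scaling. EEF1D also lost its call without either ES line (adjusted p = 0.0579 and 0.0568) and with slide as a block (adjusted p = 0.0627). The cap-binding factor gene EIF4E was higher in ES cells, at 3.57 and 3.36 against 2.35 and 2.38 (SE of the difference 0.14, adjusted p = 0.00182). EIF4G2 was also higher (0.72 ± 0.15 SE, adjusted p = 0.011), although not without rdES2-1 (adjusted p = 0.055) or with slide as a block (adjusted p = 0.0526).

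**Figure D2:**
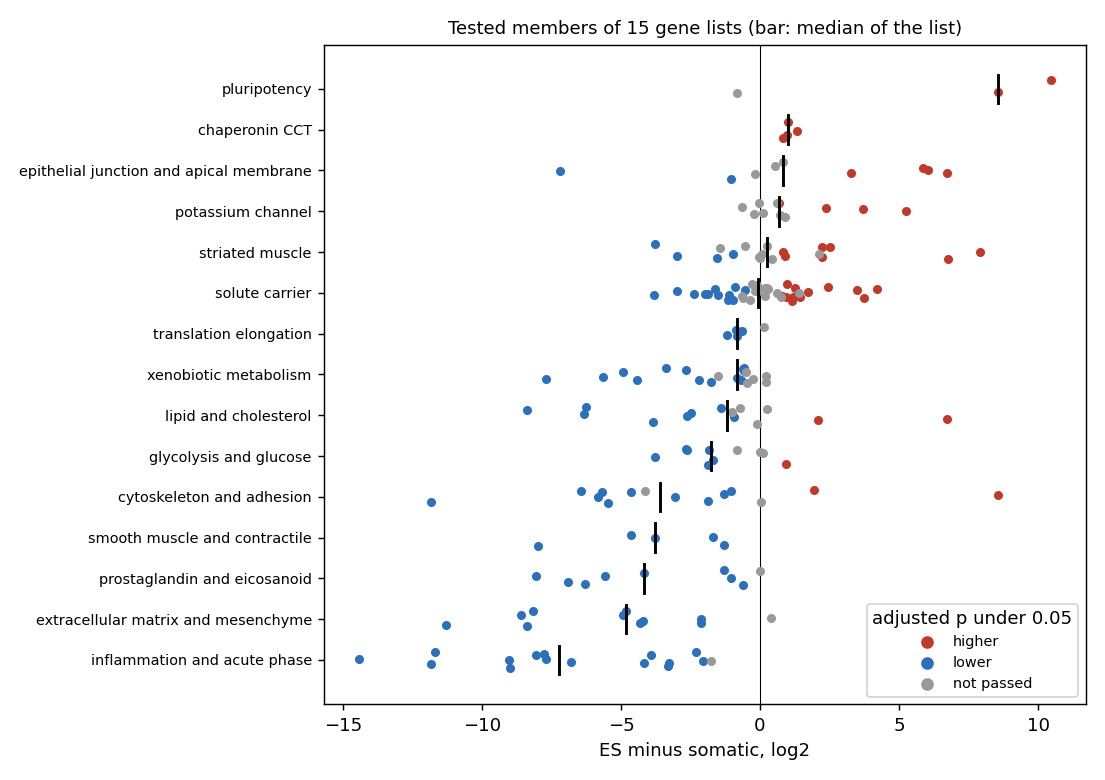
Log2 differences, ES minus somatic, of the tested members of 15 gene lists. Each point is a gene, red where it was higher in ES cells and blue where lower at an adjusted p under 0.05, grey otherwise, and the black bar is the median of the list. Inflammation, matrix, prostaglandin and contractile genes lie almost wholly to the left, with medians from -7.23 to -3.79, and chaperonin genes to the right.

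Inflammatory genes were lower in ES cells almost throughout, and 9 of the 20 largest falls were among them. Of 24 named genes of inflammation and the acute phase, 16 were tested, 15 were lower in ES cells and none was higher, with a median of -7.23, or -6.58 with dim genes at their bounds. The other 8, among them TNF, CRP and SELE, were not measured on both arrays of any group. Members dim on both ES arrays, such as SAA3, GRO-A and VCAM1, were tested only because arrays of another group measured them. The filter thus partly sets this count and median. SAA3, an acute phase protein, was at 6.62 in liver cells and 7.95 in stomach cells and on neither ES array well above background, at least 6877-fold lower in ES cells (adjusted p = 8.22e-05). The summed signal of the 24 genes, over the 75th percentile, was 290.4 in liver cells and 443.3 in stomach cells against 1.49 and 1.53 in the ES lines. SAA3 alone made up 33.76% of it in liver cells and 55.66% in stomach cells.

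Of 24 named genes of interleukins, interferons and their receptors, 11 were tested, 9 were lower in ES cells and none was higher, with a median of -3.90, or -3.28 with dim genes at their bounds. Many of them are also in the list above. Of the cytokine genes not tested, TNF, IL2 and IL10 were well above background on none of the 4 arrays, and IL1B and IL4 on the liver array alone. IL6 was at 1.00 in liver cells and 2.19 in stomach cells and at least 133.6-fold lower in ES cells (adjusted p = 0.000257), and IL18 was at 0.54 and 1.28 and at least 83.2-fold lower (adjusted p = 0.000148). IL1RN, the inhibitor of interleukin 1, was at -3.03 and -3.16 in the ES lines and 3.47 and 5.69 in liver and stomach cells (-7.68 ± 0.73 SE, adjusted p = 0.000772). IFNG, the interferon of T cells, was at -3.99 and -4.05 against 0.40 and -0.09 (-4.18 ± 0.20 SE, adjusted p = 0.000151), while CD3E and CD4, markers of T cells, were not tested. The 3 named immune cell markers were CD14, CD3E and CD4. Their summed signal was 1.14 in liver cells and 0.552 in stomach cells against 0.108 and 0.213 in the ES lines. CD14 alone made 97.2% of it in liver cells and 95.1% in stomach cells. Of the 4 arrays, CD3E was well above background on that of rdES2-1 alone and CD4 on that of rdES4 alone. The part of immune cells in these differences was not tested.

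IL1A, an interleukin 1 gene, differed within both sides: it was at -3.36 in rdES4 and -7.75 in rdES2-1 (dim) and at 2.91 in liver cells and -0.45 in stomach cells (-6.79 ± 1.80 SE, adjusted p = 0.0231). Its call was lost without rdES2-1 (-4.60, adjusted p = 0.0813) or without the liver array (-5.11, adjusted p = 0.0812). CD14, the lipopolysaccharide co-receptor of monocytes, was at -4.03 and -3.36 against 0.15 and -0.93 (-3.30 ± 0.42 SE, adjusted p = 0.00193).

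Of the chemokines, which draw leukocytes, GRO-A was at 5.79 and 5.96 in liver and stomach cells and at least 2588-fold lower in ES cells (adjusted p = 5.92e-05). CCL2 was at -4.06 and -4.38 in the ES lines and 5.59 and 4.02 in liver and stomach cells (-9.03 ± 0.54 SE, adjusted p = 0.00025). CCL4 differed less, at -2.09 and -2.25 against 0.13 and 0.10 (-2.29 ± 0.15 SE, adjusted p = 0.000289). All 3 were lower on both ES arrays than on either somatic array.

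CXCL8, which encodes interleukin 8, depended on the probe. Its brightest probe did not pass, with -2.38 and -2.52 in the ES lines, 0.46 in liver cells and -1.84 in stomach cells (-1.76 ± 0.76 SE, adjusted p = 0.0951). Without the stomach array its difference was -2.91, and with normexp it passed at -1.31 (adjusted p = 0.0307). Of its 7 probes 4 passed, and the other 3 lay between -2.20 and -1.76. On 3 of the 4 that passed neither ES array was well above background, and they were at least 313.1-fold, 30.3-fold and 26.7-fold lower in ES cells. On the first of these the levels were 4.45 in liver cells and 1.20 in stomach cells. Each of the 7 was lower in ES cells.

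**Figure D3:**
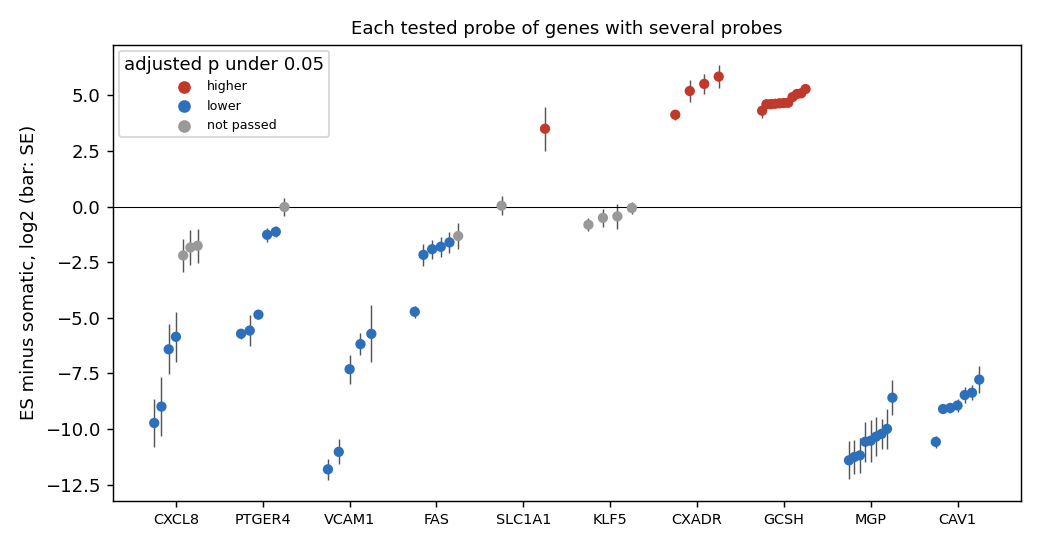
Log2 difference, ES minus somatic, of each tested probe of 10 genes with several probes. Each point is a probe, its bar the SE, red where higher and blue where lower in ES cells at an adjusted p under 0.05, grey otherwise. Probes of GCSH, CXADR, MGP, CAV1 and VCAM1 all passed in 1 direction. Those of CXCL8, PTGER4, VCAM1, FAS and SLC1A1 spread over 3 log2 units or more at the measured signals, which for dim probes have no exact size.

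VCAM1, the adhesion molecule that binds leukocytes, was at 4.82 in liver cells and 3.40 in stomach cells and at least 763-fold lower in ES cells (adjusted p = 0.000112), and all 5 of its probes passed. On 3 of the other 4 both ES arrays were also dim, and the folds were at least 511.1, 56.4 and 31.6. FAS, the death receptor gene, was at -2.24 and -2.20 in the ES lines and 2.83 and 2.20 in liver and stomach cells on its brightest probe (-4.73 ± 0.28 SE, adjusted p = 0.000242). Its other 5 probes gave -2.17 to -1.33, and 4 of them passed, so the median over all 6 was -1.86.

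Of 9 tested genes of prostaglandin and eicosanoid metabolism, 8 were lower in ES cells, with a median of -4.16; without rdES2-1 it was 5 of 9, and without scaling 5 were lower and 1 higher. PTGS2, the inducible cyclooxygenase, was at -3.06 and -2.79 in the ES lines and 4.89 and 5.34 in liver and stomach cells (-8.04 ± 0.23 SE, adjusted p = 6.73e-05). PTGS1, the constitutive enzyme, was at -0.98 and -1.50 against 3.25 and 2.60 (-4.16 ± 0.31 SE, adjusted p = 0.00041). Both cyclooxygenase genes were lower on each ES array than on either somatic array.

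PLA2G4A, the phospholipase that releases arachidonic acid, was at -7.19 in rdES4, -5.15 in rdES2-1, -0.14 in liver cells and 0.35 in stomach cells (-6.28 ± 0.90 SE, adjusted p = 0.0029), with a single ES array well above background. AKR1C5, an aldo-keto reductase, was at least 33.6-fold lower in ES cells (adjusted p = 0.000174). PTGER4, a receptor for prostaglandin E2, was at -6.66 and -4.56 in the ES lines, a single one of which measured it, and 0.10 and -0.16 in liver and stomach cells (-5.58 ± 0.69 SE, adjusted p = 0.0018). Of its 6 probes 5 passed. On 2 of them both ES arrays were dim, with folds of at least 27.5 and 14.6, whereas another 2 had differences of -1.27 and -1.14 and the one that did not pass -0.02.

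Matrix genes were lower in ES cells in 10 of 11 tested cases, with a median of -4.82, and MMP3 did not pass (0.38, adjusted p = 0.601). Decorin (DCN), a collagen-binding proteoglycan, was at 4.44 and 5.42 in liver and stomach cells and at least 1351-fold lower in ES cells (adjusted p = 9.22e-05). MGP, an inhibitor of calcification, was at -1.91 and -2.95 in the ES lines and 7.16 and 5.18 in liver and stomach cells (-8.60 ± 0.78 SE, adjusted p = 0.000672), and all 9 of its probes passed. CAV1, which coats caveolae, was at -3.83 and -4.01 against 4.76 and 4.13 (-8.37 ± 0.34 SE, adjusted p = 0.000112).

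Another 3 matrix and adhesion genes show the range of levels within the ES lines. SPP1 (osteopontin) was not well above background in either line and at least 87.4-fold lower than in somatic cells, where it was at 1.96 in liver and 0.01 in stomach cells (adjusted p = 0.00197). TIMP1, an inhibitor of matrix metalloproteinases, was bright in the ES lines too, at 2.70 and 2.63, yet lower than in liver and stomach cells, at 7.04 and 8.12 (-4.92 ± 0.36 SE, adjusted p = 0.00041). ITGB3, an integrin subunit, was at -0.93 and -0.80 against 5.26 and 4.67 (-5.83 ± 0.27 SE, adjusted p = 0.00014).

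Also lower were S100A10, a partner of annexin A2, at -0.45 and -0.36 in the ES lines against 4.74 and 5.81 (-5.68 ± 0.37 SE, adjusted p = 0.000289), and TFPI, an inhibitor of coagulation, with rdES2-1 at -3.04, rdES4 lower still, and liver and stomach cells at 4.40 and 3.20 (-7.32 ± 0.60 SE, adjusted p = 0.000518). Of 14 tested genes of the cytoskeleton and adhesion, 10 were lower, 2 higher and 2 did not pass. S100B, a calcium-binding protein known from glia, was at least 26.3-fold lower in ES cells (adjusted p = 0.00244).

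All 5 tested contractile genes of smooth muscle were lower in ES cells, with a median of -3.79 (-3.76 with dim genes at their bounds), but 3 of 5 without scaling and 3 of 5 without rdES2-1. ACTA2, the actin of smooth muscle, was at -2.54 and -1.30 in the ES lines and at 7.02 in liver cells and 5.13 in stomach cells (-7.99 ± 0.75 SE, adjusted p = 0.000758). TPM2, a tropomyosin gene, fell at least 13.5-fold (adjusted p = 0.000609), and PLN, which restrains a calcium pump, fell at least 13.8-fold (adjusted p = 0.00149). All of these were brighter in liver cells than in stomach cells.

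CALD1, an actin-binding protein, and the tropomyosin gene TPM1 were bright on all 4 arrays, with differences of -1.68 ± 0.38 (SE, adjusted p = 0.0141) and -1.28 ± 0.33 (SE, adjusted p = 0.0206). Neither passed without rdES2-1 (adjusted p = 0.0737 and 0.101) or without scaling (adjusted p = 0.105 and 0.327), and TPM1 was at -0.84 without the liver array.

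Of 7 tested genes of growth factors and their receptors, 4 were lower (57.1%) and 2 higher (28.6%), beside 42.7% and 21.1% of all named genes tested. TGFB2, a ligand that drives matrix production, was at -2.62 and -2.50 in the ES lines and 2.70 and 1.58 in liver and stomach cells (-4.70 ± 0.38 SE, adjusted p = 0.000512). BMP2, a bone morphogenetic protein, was at -2.53 and -1.30 against 2.17 and 2.39 (-4.20 ± 0.42 SE, adjusted p = 0.000924). IGF1, the growth factor that acts with growth hormone, was at 0.93 in liver cells and -3.20 in stomach cells and at least 20.1-fold lower in ES cells (adjusted p = 0.0106). The IGF1 call was lost without rdES4 (adjusted p = 0.052) or rdES2-1 (adjusted p = 0.0539), and its difference was -4.14 without the liver array and -8.27 without the stomach array.

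Genes that handle drugs and foreign compounds were lower in ES cells for 13 of 19 tested members, none being higher, with a median of -0.82; without scaling 8 were lower and 2 higher. AOX1, an aldehyde oxidase, was at 1.78 and 0.94 in liver and stomach cells and at least 113.6-fold lower in ES cells (adjusted p = 0.0002). UGT1-6, a glucuronosyltransferase, was at -2.54 and -2.52 in the ES lines and 0.81 and 2.98 in liver and stomach cells (-4.43 ± 0.70 SE, adjusted p = 0.00397). PON3, a lactonase, was at least 33.1-fold lower (adjusted p = 0.000282).

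ALDH1A1, which makes retinoic acid, was at -1.08 in liver cells and -4.12 in stomach cells and at least 7.29-fold lower in ES cells (adjusted p = 0.00852), with differences of -3.41 without the liver array and -6.45 without the stomach array. AHR, the receptor that senses dioxins, was at -2.86 and -2.78 in liver and stomach cells and at least 6.26-fold lower (adjusted p = 0.00012). MT3, a metallothionein, was at 0.07 and 0.00 in the ES lines and 3.66 and 5.57 in the somatic cells (-4.58 ± 0.62 SE, adjusted p = 0.0024).

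In lipid metabolism 8 of 14 tested genes were lower (57.1%) and 2 higher (14.3%), beside 42.7% and 21.1% of all named genes tested, with a median of -1.20. Without scaling 5 were lower and 4 higher, with a median of -0.32, and with normexp 11 were lower and 2 higher. VLDLR, a lipoprotein receptor, was at -3.72 and -3.95 in the ES lines and 2.26 and 2.73 in liver and stomach cells (-6.33 ± 0.22 SE, adjusted p = 8.08e-05). All 4 nuclear receptor genes measured were lower in ES cells, under each scaling tried. PPARD was at -4.25 and -4.12 against -0.51 and -0.19 (-3.84 ± 0.18 SE, adjusted p = 0.000152), and PPARG, the regulator of fat cells, at -2.97 and -2.83 against -0.42 and -0.13 (-2.62 ± 0.25 SE, adjusted p = 0.000748). NR1H4, the bile acid receptor, was at 0.26 in liver cells and -2.89 in stomach cells and at least 17.8-fold lower in ES cells (adjusted p = 0.00422; -4.67 without the liver array).

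Of 10 tested genes of glycolysis and glucose handling, 6 were lower in ES cells (60%), beside 42.7% of all named genes tested, with a median of -1.77. They were ALDOA, GAPDH, GPI and LDHA, the glycogen synthase gene GYS1 and the transporter gene SLC2A4. SLC2A1, a glucose transporter gene, was higher (0.94, adjusted p = 0.0361). GPI, the second enzyme of glycolysis, was at 4.46 and 4.62 in the ES lines and 7.09 and 7.29 in liver and stomach cells (-2.66 ± 0.15 SE, adjusted p = 0.000226). ALDOA, the aldolase of muscle, had a difference of -2.64 ± 0.18 (SE, adjusted p = 0.000349), and SLC2A4, the insulin-responsive glucose transporter, of -1.85 ± 0.32 (SE, adjusted p = 0.00553). GAPDH, often used as a reference, was at 7.13 and 7.24 against 8.86 and 9.19 (-1.84 ± 0.18 SE, adjusted p = 0.000792); with quantile normalization it was -1.08 and without scaling -0.96, still passing.

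CAMK2D, a calcium-dependent kinase gene, was at 1.81 and 2.41 in the ES lines and 5.97 and 5.69 in liver and stomach cells (-3.72 ± 0.26 SE, adjusted p = 0.000362). Of 21 tested protein kinase genes, 7 were lower (33.3%), 3 higher (14.3%) and 11 did not pass. Over all named genes tested, 42.7% were lower and 21.1% higher. The direction of the kinase list depended on the processing: without scaling 2 were lower and 13 higher, and with normexp 11 were lower and 4 higher. THBD, the endothelial thrombin receptor thrombomodulin, had a difference of -1.48 ± 0.14 (SE, adjusted p = 0.000719), and the neuropeptide gene NPY was at -1.92 and -1.89 against 3.49 and 2.20 (-4.75 ± 0.58 SE, adjusted p = 0.00166).

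Plasma protein and gastric genes did not share a direction. TF, the iron carrier transferrin, was at 2.09 and 1.57 in the ES lines and -1.62 and -2.83 in liver and stomach cells (4.05 ± 0.43 SE, adjusted p = 0.00111). RBP4, the carrier of vitamin A, was at -0.62 and -1.04 against 1.89 and 3.75 (-3.65 ± 0.62 SE, adjusted p = 0.00527). APOE, a lipoprotein gene, did not pass, at -1.68 and -1.14 in the ES lines, -1.47 in liver cells and 0.64 in stomach cells (adjusted p = 0.26). Its difference was -2.05 without the liver array and 0.06 without the stomach array.

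Among gastric genes CTSE, a protease of the stomach lining and of immune cells, was at 2.46 in liver cells and 0.32 in stomach cells and at least 115.7-fold lower in ES cells (adjusted p = 0.000435). It was brighter in the liver cells than in the stomach cells. ATP4A, the catalytic subunit of the acid pump, and PGC, a pepsinogen, were low on all 4 arrays, between -4.66 and -3.41, and slightly higher in ES cells (0.78, adjusted p = 0.0167, and 0.60, adjusted p = 0.0275). With normexp both turned, to -0.33 and -0.41. PGC was well above background on all 4 arrays and ATP4A on all but the liver array. The call of ATP4A was lost without rdES4, rdES2-1 or the liver array (adjusted p from 0.054 to 0.0781) and with slide as a block (adjusted p = 0.0554). PGC lost its call without rdES4, rdES2-1, the stomach array, the early array of the stomach iPS line or the late array of the liver iPS line (adjusted p from 0.081 to 0.144), and with slide as a block (adjusted p = 0.0728).

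**Figure D4:**
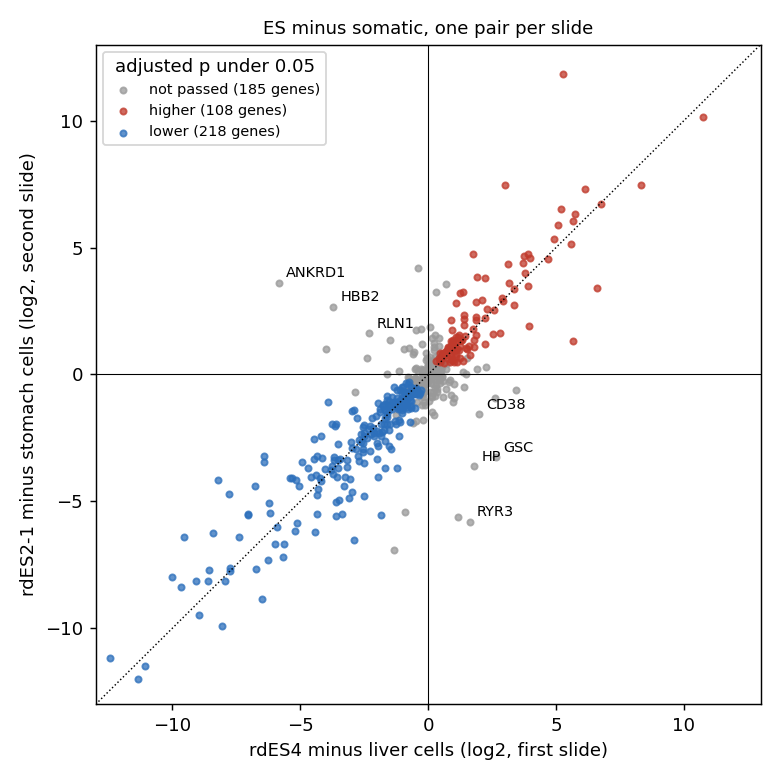
Log2 difference of rdES4 minus liver cells (horizontal, first slide) against rdES2-1 minus stomach cells (vertical, second slide) for the 511 tested named genes. Each point is a gene, red where higher and blue where lower in ES cells at an adjusted p under 0.05, grey otherwise; the dotted line marks equal differences. Called genes lie in the lower left and upper right, and the 7 labelled genes, in the other corners, have ES levels between those of liver and stomach cells.

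The somatic pair is 2 tissues, and in some genes they lay on either side of the ES lines. ANKRD1, a stress-responsive muscle protein, was at -0.79 and -0.59 in the ES lines, 5.05 in liver cells and -4.21 in stomach cells, so it was -5.84 on the first slide and 3.62 on the second and did not pass (-1.11 ± 2.92 SE, adjusted p = 0.757). With a single somatic array the difference of ANKRD1 took opposite signs, 3.52 without liver cells and -5.74 without stomach cells. The calcium channel gene CACNA1C was at -3.01 and -3.81 in the ES lines, 1.80 in stomach cells and -4.18 in liver cells (dim there; adjusted p = 0.347). Without the liver array the difference of CACNA1C was -5.21, and without the stomach array it was 0.77.

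The transcription factor gene PAX6, known from eye and brain, overlapped between the sides, at -0.97 and 0.06 in the ES lines and 1.44 and -0.60 in liver and stomach cells (adjusted p = 0.386), and was at 0.14 without the liver array. Over the 511 named genes, 40 differed by at least 2 log2 units within the somatic pair and 9 between the ES lines, IL1A being the widest of the latter at 4.38. The SD over all tested probes was 2.01 and 2.08 for the ES minus somatic difference on the first and second slide.

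Genes often used as references were not alike on both sides. ACTB, a cytoskeletal actin, was at 7.81 and 7.77 in the ES lines and 8.65 and 8.54 in liver and stomach cells (-0.80 ± 0.14 SE, adjusted p = 0.00517), but at -0.06 with quantile normalization and 0.07 without scaling, neither passing (adjusted p = 0.737 and 0.744). HPRT1, an enzyme of purine salvage, was higher in ES cells under each scaling (1.00 ± 0.15 SE, adjusted p = 0.00364). PPIA, a prolyl isomerase, did not pass (0.36, adjusted p = 0.0803), whereas it did with quantile normalization (0.66, adjusted p = 0.0108), with normexp (0.58, adjusted p = 0.00456) and without scaling (1.23, adjusted p = 0.00289). Its difference without the liver array was 0.47.

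Set against the 4 iPS arrays, averaged by line (n = 2 lines), the ES lines showed no probe past the threshold in limma: 0 of 28848 probes (0%) were called, the smallest adjusted p was 0.0927, and 2139 probes had an unadjusted p under 0.05. Over the probes that stood for named genes the largest absolute difference was 2.67, while another probe of CAV1 was at -3.18. With n = 2 on each side, 0 calls do not show that ES and iPS cells are alike. In the fit of all 6 units, ES minus somatic and iPS minus somatic share the somatic arrays. POU5F1 had a difference of 10.46 in ES and 10.89 in iPS cells, DCN, dim in ES and iPS cells, of -11.29 and -11.45 at the measured signals, and CAV1 of -8.37 and -5.99.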

How the data were processed

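RNA was labelled with Cy3 and hybridised to 1-colour Agilent arrays, 1 per sample. Per the file headers, the deposited intensities came from Agilent Feature Extraction 10.5.1.1, which corrects background and trends, and no scaling between arrays was applied. The authors' deposited value table, on a log2 scale, matched these intensities scaled to the 75th percentile and centred per probe (correlation of at least 0.9998 on every array), which settles its scale, centring and direction; it served as an alternative. Its column medians lay between -0.0416 and 0.3423.

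Here log2 intensity minus each array's 75th percentile was used, after dropping control and flagged spots and averaging repeated spots. Each array held 45220 spots, 1417 of them controls, and 43603 probes; no spot was saturated. Probes well above background on both arrays of at least 1 group were tested (28848); 19 without an unflagged spot on some array were left out. The number of arrays limits the precision.

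Symbols came from a RefSeq table of the assembly mOryCun1.1, used for names only; 1933 probes of 680 genes matched and 41571 probes stayed unnamed here. The brightest tested probe on average stood for a gene. Where every array of a side was dim for a gene, its fold is a bound, "at least N-fold": on each dim array the gene's signal was raised, if lower, to that of the faintest probe marked well above background, and the mean of these was set against the bright side.

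The test was limma's, version 3.58.1 under R 4.3.3 (linear models with empirical Bayes moderation, two-sided, Benjamini-Hochberg over all tested probes, threshold 0.05), with 6 units in 3 groups sharing 1 estimate of the spread: the ES arrays, the somatic arrays and the iPS lines, each averaged over its passages. The scripts were tested on simulated data. Lists were written from textbook knowledge, 45 in all, of which 43 had a tested member, and 9 symbols caught by a name pattern without belonging were taken out. The comparison and the lists were chosen with earlier results of these data known. Named genes followed a rule: the 20 largest rises and 20 largest falls that passed without overlap, up to 5 tested members of each list (all where it had 6 or fewer), fixed genes and the 5 widest liver-stomach and ES-ES differences. In all, 173 genes met it, and most of those the text describes were selected from them. SLC2A1 and MMP3 did not meet it and are given as list members that were not lower. HP, RLN1 and CD38 were, like the 4 genes so described in the report, chosen after their values were seen.

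Alternatives were other scalings, filters, fits and thresholds, leaving out each array, slide as a block and the authors' table. The files held no mean signal, so normexp (offset 50) was run on the median signal, chosen after seeing the files. Some genes are not reported here.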

Additional observations from a re-analysis of the deposited data

Results flagged for a closer look

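In 7 named genes both ES lines lay at least 1 log2 unit above one somatic array and below the other, so that rdES4 minus liver cells and rdES2-1 minus stomach cells had opposite signs. That these differences differ was not tested, since each rests on 1 array per side, and tissue and slide cannot be told apart in them. The liver minus stomach difference was 9.27 for ANKRD1 and -7.00 for RYR3, a calcium release channel at 0.42 in stomach cells and not well above background in liver cells. It was 5.40 for the beta globin gene HBB2, at -1.27 in liver cells and not well above background in stomach cells. For GSC, a transcription factor of the gastrula organizer, it was -5.35, with levels of -3.81 and -4.38 in the ES lines, and -1.13 in stomach cells, and it was dim in liver cells. The plasma protein gene HP (haptoglobin) gave -4.69, being brighter in stomach cells at 2.16 than in liver cells at -2.53. RLN1, which encodes relaxin, gave 3.60, and CD38, an enzyme of the surface of immune cells, gave -3.42.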

How the results depend on the processing

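Counts of calls over all probes stayed within 1.5 times of 18442 in total, 9877 higher and 8565 lower, with these exceptions: with unscaled arrays 16559 were higher and 3771 lower, with normexp 14142 were lower, and with no filter on dim probes 14505 were lower of 43584 tested. Among named genes 204 were higher and 134 lower without scaling, against 108 and 218. Leaving out 1 array gave 14973 to 18469 called probes and 268 to 338 called named genes. The replicate numbers follow the order of accessions and pair no samples, but the slides pair rdES4 with liver cells and rdES2-1 with stomach cells. Blocking on slide left 14805 calls, 14539 of them among the 18442, and 279 called named genes.

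Signs turned as follows. Without scaling KLF5 was 0.057, EEF1A1 0.056, EEF1B2 0.015, EEF1D 0.217 (0.092 with quantile normalization), ACTB 0.07, HBB2 0.35, GSC 0.58, EDN1 0.003 and RLN1 0.54. With normexp SYPL2 was -0.40, FGFR2 -0.057, KCNK1 -0.41, ATP4A -0.33, PGC -0.41 and CD38 -0.49. Leaving out 1 array, ANKRD1 ranged from -5.74 to 3.52, HBB2 from -3.23 to 2.17, PAX6 from -1.89 to 0.14, RLN1 from -2.13 to 1.47, CD38 from -1.50 to 1.92, APOE from -2.05 to 0.06, CACNA1C from -5.21 to 0.77, RYR3 from -5.59 to 1.41, GSC from -2.97 to 2.38 and HP from -3.26 to 1.44, the ends being the fits without liver cells and without stomach cells. The cause was not tested, except that leaving out a somatic array by its construction leaves a single tissue.

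Of the 110 called genes named here, 52 had a log2 difference more than 1.5 times larger or smaller, or of the other sign, with normexp, 23 without scaling and 6 with quantile normalization. Leaving out the liver or the stomach array moved the fold of 31 by over 1.5 times in each case. In total 25 lost their call with the sign kept, and 10 changed sign, under some setting. A call lost together with a change of sign, as for EDN1 without scaling, does not count toward the 25. Dim genes limit the comparison: their differences are bounds, and normexp, which adds an offset of 50, changed their size and at times their sign. With it SYPL2 went from 2.53 to -0.40 and KCNK1 from 2.37 to -0.41, while CKMT2 and EDNRB stayed higher at 1.91 and 1.59. ATP4A and PGC, low on every array, turned to similar values of -0.33 and -0.41. The median over all tested probes moved from 0.07 to -0.32. How far the offset itself sets such reversals was not tested, so they are not evidence on the single genes.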
